A study of Mus musculus with 8 samples.

Results

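Endothelial cells line the aorta in a single layer, and 41 genes that mark them or report on their state were followed by symbol through the deposited gene counts of whole mouse aorta. Of these, 25 mark endothelial identity (junction proteins, receptors and transcription factors), 6 belong to arterial fate and Notch signalling, 6 to flow response, vascular tone and anticoagulation, and 4 encode the leukocyte adhesion molecules Sele, Selp, Icam1 and Vcam1. All 41 were present among the 48587 symbols of the table, and all 41 passed the filter on low counts that left 16194 genes for testing. The lowest count of any of them in a library was 25, for Apln, and 35 of the 41 had at least 100 counts in every library.

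RNA came from the whole aortic tree of mice in 4 groups of 2 libraries each. KO_VitD and KO_vehicle are mice labelled as lacking Tet2, a methylcytosine oxidase, specifically in vascular smooth muscle cells, given VitD or vehicle. WT_VitD and WT_vehicle are mice labelled WT (wild type), given the same. By its title the series concerns TET2 and calcification of the aortic media. Not given in the sources used here: dose, duration, age, the Cre driver and the number of mice behind a library. Since no label says that both libraries of a group come from different mice, the p-values rest on a spread that may be technical.

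Libraries held 15679274 to 22332149 counts, and levels are given as CPM, counts per 1000000 after TMM scaling. A gene was called when its adjusted p fell below 0.05 in edgeR's quasi-likelihood test. Tet2 itself stood at 26.6 and 37.6 CPM in KO_VitD, against 42 and 35.2 CPM in KO_vehicle, and 18.3 and 20 CPM in WT_VitD, against 35.8 and 32.2 CPM in WT_vehicle, so it was not lower in the libraries labelled knockout. Whole tissue also holds Tet2 RNA of other cells, which part of the gene was deleted is not known here, and every genotype direction below rests on the label. The library names carry numbers of a lower range in 5 libraries and of a higher range in the other 3, which are both WT_VitD libraries and KO_VitD 1. KO_VitD 2 is the single VitD library of the lower range, and it was below all 3 other VitD libraries for 35 of the 41 genes, where 33.3% of all genes tested were placed like this. Results that rest on it are given with and without it. In WT, treatment and number range cannot be told apart.

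Endothelial cells are held together by cell-specific junction proteins such as VE-cadherin, and they sense vascular endothelial growth factor and angiopoietins through receptor kinases that few other cells make. The resting arterial lining releases nitric oxide and keeps blood from clotting. When inflammatory cytokines reach it, the transcription factor NF-κB switches on selectins, which let leukocytes roll, and the immunoglobulin-type molecules ICAM1 and VCAM1, which make them stop. In whole tissue, more or fewer cells of a type and more or less RNA per cell cannot be told apart. Some of the genes are not private to endothelium, since platelets carry P-selectin, von Willebrand factor and PECAM1, macrophages make ICAM1, and smooth muscle cells and fibroblasts can make VCAM1.

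Promoters of adhesion genes are shown because all 4 of these genes were called higher in WT_VitD and κB elements in such promoters are textbook sites of NF-κB. The windows reach from 250 bases before to 50 bases after the transcript start, taken from RefSeq (GRCm38.p6), 5′ to 3′ on the plus strand of the genome, on which all 3 genes lie. Sele is chr1:164047984-164048283, Selp chr1:164115014-164115313 and Icam1 chr9:21015690-21015989. Of the 41 genes, 24 had a window in the RefSeq table, and Vcam1 was not among them. Capitals mark a match to either of 2 κB-like words, one reading GGGAA, any 3 bases, CC, and the other GGAANTTCC. Both were chosen after these windows had been read, and both were searched on each strand.
Sele: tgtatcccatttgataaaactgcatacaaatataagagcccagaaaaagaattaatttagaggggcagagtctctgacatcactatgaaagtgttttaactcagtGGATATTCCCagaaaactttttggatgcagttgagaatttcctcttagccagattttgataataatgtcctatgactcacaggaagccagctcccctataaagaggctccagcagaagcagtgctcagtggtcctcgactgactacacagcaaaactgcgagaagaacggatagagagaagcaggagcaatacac
Selp: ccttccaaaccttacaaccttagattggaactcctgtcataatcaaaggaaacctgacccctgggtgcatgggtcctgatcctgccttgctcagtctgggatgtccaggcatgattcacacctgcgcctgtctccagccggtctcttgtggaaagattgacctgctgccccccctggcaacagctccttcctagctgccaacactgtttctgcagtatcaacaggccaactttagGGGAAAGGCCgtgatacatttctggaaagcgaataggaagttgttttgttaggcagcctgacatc
Icam1: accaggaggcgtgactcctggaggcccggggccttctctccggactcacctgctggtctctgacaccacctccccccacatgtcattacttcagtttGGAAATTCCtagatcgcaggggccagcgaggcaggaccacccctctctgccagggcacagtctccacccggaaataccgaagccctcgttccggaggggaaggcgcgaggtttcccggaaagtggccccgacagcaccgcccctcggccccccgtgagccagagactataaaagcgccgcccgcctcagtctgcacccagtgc
In Sele the match, GGGAATATCC read on the minus strand, spans 145 to 136 bases before the start. In Selp, GGGAAAGGCC lies 15 to 6 bases before the start, and in Icam1, GGAAATTCC lies 153 to 145 bases before it. The first word occurs in 5.78% and the second in 0.928% of all 32851 windows of this length, and either one in 6.33%. Of 16 windows of identity genes 1 held a word. Because the words were chosen on the 3 windows printed here, these shares cannot measure an excess of matches in them. A match describes letters only.

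The 4 leukocyte adhesion genes had the highest class median under VitD, and Sele and Selp the 2 highest fold changes of the 41 in WT. Sele (chr1:164048234-164057677, plus strand; mm10, as all gene positions here, from GENCODE M21) encodes E-selectin, which appears on the surface of cytokine-stimulated endothelium and catches rolling leukocytes. It stood at 72.9 and 10.6 CPM in KO_VitD, against 4.73 and 3.18 CPM in KO_vehicle. In the wild type it stood at 49.4 and 59.3 CPM in WT_VitD, against 5.9 and 2.51 CPM in WT_vehicle. Every VitD library lay above every vehicle library, with KO_VitD 2 by far the lowest of the 4. By edgeR, the WT difference was called (log2 fold change 3.70 with SE 0.798, adjusted p = 0.0194) and that in the knockout was not (log2 fold change 3.40 with SE 0.793, adjusted p = 0.148). These levels rest on 44 to 95 counts in the WT_vehicle libraries and 747 to 1047 in the WT_VitD libraries.

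Selp (chr1:164115264-164150026, plus strand), P-selectin, is stored in endothelial granules and platelets and tethers leukocytes within minutes of release. It stood at 153 and 31.5 CPM in KO_VitD, against 23.1 and 18 CPM in KO_vehicle. The WT libraries had 110 and 131 CPM in WT_VitD, against 18.2 and 18.1 CPM in WT_vehicle. The groups did not overlap in either genotype, and KO_VitD 2 again lay between the vehicle libraries and the other VitD libraries. The edgeR test called it in WT (log2 fold change 2.73 with SE 0.588, adjusted p = 0.0193) but not in the knockout (log2 fold change 2.16 with SE 0.575, adjusted p = 0.189).

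Vcam1 (chr3:116109949-116129688, minus strand) is the ligand of the integrin VLA-4 on monocytes and lymphocytes. It stood at 520 and 269 CPM in KO_VitD, against 97 and 124 CPM in KO_vehicle. WT libraries had 463 and 410 CPM in WT_VitD, against 118 and 84.9 CPM in WT_vehicle. All 4 VitD libraries were above all 4 vehicle libraries, including KO_VitD 2 at 2.53 times the vehicle mean. It rose 4.3-fold in WT (edgeR log2 fold change 2.10 with SE 0.331, adjusted p = 0.00894), and the knockout gave log2 fold change 1.83 with SE 0.328, adjusted p = 0.0811, which missed the threshold.

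Icam1 (chr9:21015985-21028817, plus strand) binds the β2 integrins of leukocytes. It stood at 115 and 49.9 CPM in KO_VitD, against 54.2 and 63.5 CPM in KO_vehicle. The wild type gave 105 and 115 CPM in WT_VitD, against 51.6 and 38.7 CPM in WT_vehicle. WT groups did not overlap, while KO_VitD 2 was below both KO_vehicle libraries. Icam1 rose in WT (edgeR log2 fold change 1.28 with SE 0.344, adjusted p = 0.0338) and was not called in the knockout (log2 fold change 0.48 with SE 0.339, adjusted p = 0.535).

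**Figure D1:**
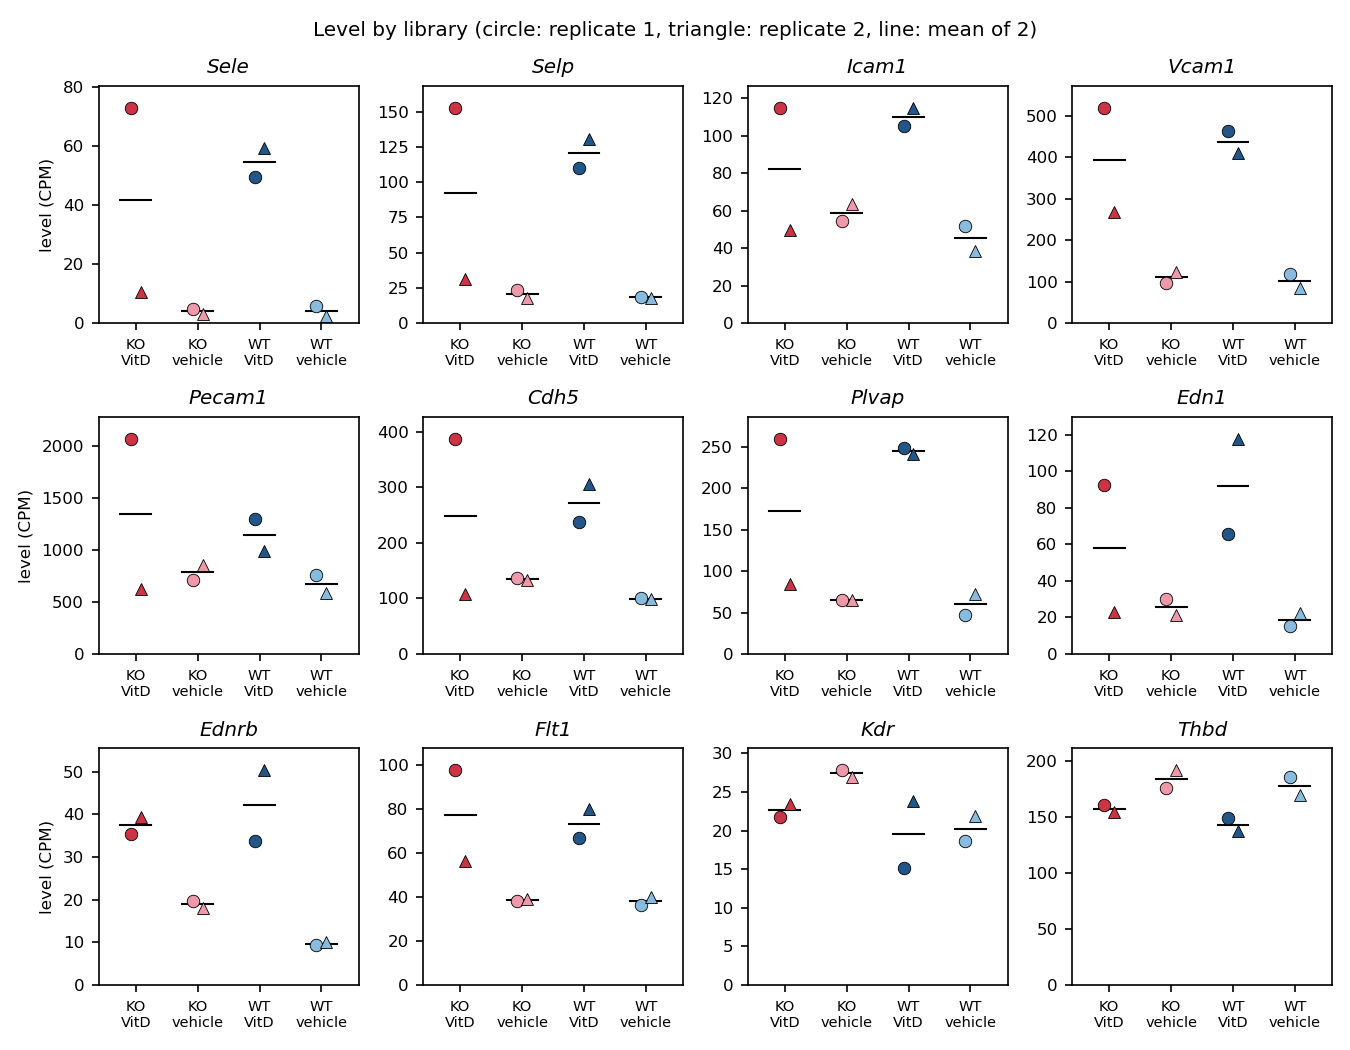
Levels in CPM (vertical axes, from 0) of 12 endothelial genes in the 8 libraries, by genotype and treatment; circles and triangles are replicates 1 and 2 and lines the mean of 2. Sele, Selp and Vcam1 were above the vehicle libraries in every VitD library, while Pecam1 and Cdh5 in KO_VitD 2, at 627 and 108 CPM, stayed within the range of the vehicle libraries.

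Across all 41 genes, edgeR called 13 higher and 0 lower under VitD in WT, where 10.6% of all genes tested were called higher and 9.47% lower. These were all 4 adhesion genes, 6 of 25 identity genes, 1 of 6 arterial genes and 2 of 6 of the flow and tone group. At an unadjusted p under 0.05, 24 were higher and 0 lower, with 18.9% and 19.1% of all genes. DESeq2 called 22 higher and 0 lower, with 13.1% of all genes called higher. The median log2 fold change over the 41 was 1.01, where that over all genes tested was -0.028. By class the median was 2.42 for adhesion, 0.94 for identity, 1.14 for the arterial and 1.04 for the flow and tone genes. Both WT_VitD libraries were above both WT_vehicle libraries for 34 of the 41, as were 33.8% of all genes tested. Hey1 and Thbd had both WT_VitD libraries below both WT_vehicle libraries, as had 35.3% of all genes.

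The number of calls changed with the libraries used and with the number range. Fold changes moved less when a WT library was left out. Without WT_vehicle 1, WT_vehicle 2 or WT_VitD 2, the WT log2 fold change was 4.44, 3.20 and 3.56 for Sele. It was 2.74, 2.73 and 2.60 for Selp and 2.37, 1.89 and 2.20 for Vcam1. Where a library was left out, the one remaining in its group was assumed to vary like the others. Ednrb alone was called without WT_vehicle 1, without WT_vehicle 2 or without WT_VitD 2, where 1.15%, 2.19% and 0.81% of all genes were called higher. Without KO_vehicle 1 or KO_vehicle 2 the count was 7, with 6.72% and 6.78% of all genes, and without WT_VitD 1 it was also 7, with 4.5%. It was 27 without KO_VitD 1 or KO_VitD 2, with 15.3% and 14.9% of all genes. The count was 27 in a fit of the WT libraries alone (15.3% of all genes), 29 with no filter (8.95%), 10 with the length trend removed (9.31%) and 11 with the replicate number as a block (8.39%). The fit with no filter kept 28001 genes. In it the edgeR adjusted p of Sele in WT fell from 0.0194 to 4.27e-36, at a log2 fold change of 3.72 against 3.70. Calls made in that fit alone, here and below, are therefore uncertain. Adding the number range as a covariate left 0 members called by edgeR and 0.358% of all genes, with 2 members higher and 9 lower at an unadjusted p under 0.05, where 6.58% of all genes were higher and 3.25% lower. The median log2 fold change in WT was then -0.43 for identity and 0.68 for adhesion genes. That fit takes its estimate of the range from the difference between KO_VitD 1 and KO_VitD 2.

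**Figure D2:**
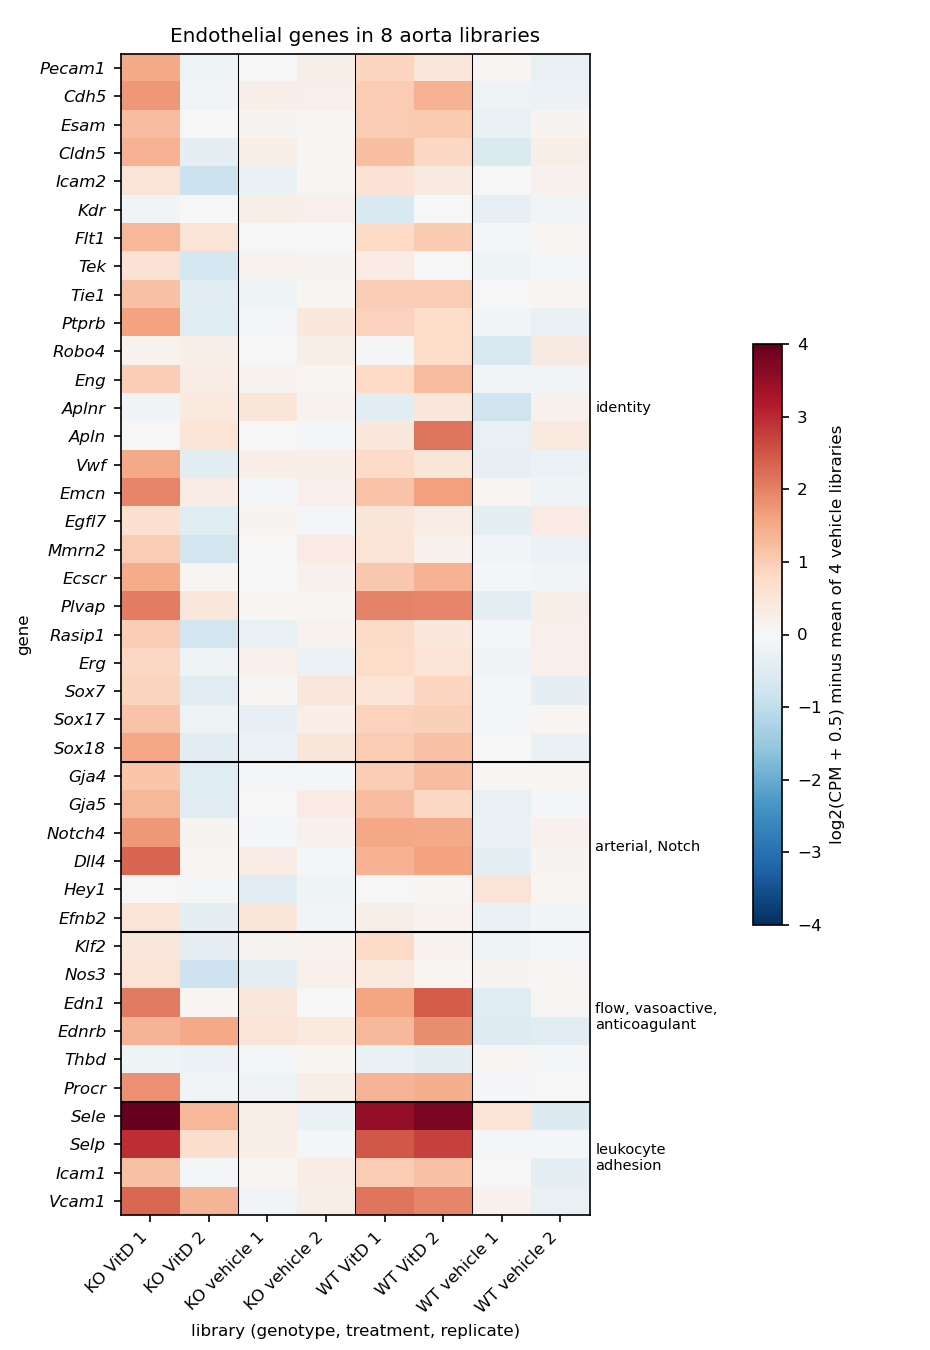
Heat map of 41 endothelial genes (rows, by class) in 8 libraries (columns); colour is log2(CPM + 0.5) minus the mean of the 4 vehicle libraries. The adhesion genes Sele, Selp and Vcam1 are raised in all 4 VitD libraries, and most identity genes in 3 of them, with a class median of 1.15 in KO_VitD 1, 0.79 and 0.83 in WT_VitD, and -0.21 in KO_VitD 2.

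Of the 25 identity genes, 24 had a log2 fold change above 0 in WT, as had 7844 of all 16194 genes tested. Of the 25, 6 were called higher, where 10.6% of all genes were. Pecam1 (chr11:106654217-106750628, minus strand), the adhesion protein of cell borders, was the most abundant of the 41 per kb of transcript, at 333 CPM per kb in WT_VitD and 196 CPM per kb in WT_vehicle. It stood at 2076 and 627 CPM in KO_VitD, against 717 and 855 CPM in KO_vehicle, and at 1303 and 991 CPM in WT_VitD, against 760 and 586 CPM in WT_vehicle. The WT groups did not overlap, yet the difference was not called by edgeR (log2 fold change 0.77 with SE 0.468, adjusted p = 0.256). Cdh5 (chr8:104101625-104144511, plus strand), VE-cadherin, which zips neighbouring cells together, had 388 and 108 CPM in KO_VitD, against 137 and 134 CPM in KO_vehicle. WT libraries had 238 and 307 CPM in WT_VitD, against 100 and 99.6 CPM in WT_vehicle, narrowly missing the threshold (log2 fold change 1.44 with SE 0.472, adjusted p = 0.0595).

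Esam, a tight junction protein shared with platelets, rose in WT (edgeR log2 fold change 1.12 with SE 0.341, adjusted p = 0.049), with 121 and 123 CPM in WT_VitD, against 49 and 63.4 CPM in WT_vehicle. Claudin 5, Cldn5, which seals tight junctions, reached 64 and 49.5 CPM in WT_VitD, against 18.5 and 32.8 CPM in WT_vehicle without a call (adjusted p = 0.126). Icam2, an adhesion molecule that resting endothelium makes without stimulation, gave 55.1 and 46.8 CPM in WT_VitD, against 36.7 and 41.1 CPM in WT_vehicle. It was not called (edgeR log2 fold change 0.39 with SE 0.371, adjusted p = 0.47), and KO_VitD 2 at 20.1 CPM was below every vehicle library. Plvap, the diaphragm protein of fenestrae and caveolae, differed most of the identity genes. It rose to 248 and 241 CPM in WT_VitD, against 46.9 and 73 CPM in WT_vehicle (edgeR log2 fold change 2.03 with SE 0.449, adjusted p = 0.0205), and in the knockout it stood at 260 and 84.8 CPM in KO_VitD, against 65.6 and 65.2 CPM in KO_vehicle.

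Receptors of the growth factor and angiopoietin systems gave 1 call, in Flt1. Flt1, VEGF receptor 1, a decoy that binds the factor tightly, rose in WT to 66.9 and 79.8 CPM in WT_VitD, against 36.2 and 40 CPM in WT_vehicle (edgeR log2 fold change 0.94 with SE 0.252, adjusted p = 0.0333). In the knockout it had 97.9 and 56.4 CPM in KO_VitD, against 38 and 39 CPM in KO_vehicle with no overlap (log2 fold change 1.0 with SE 0.252, adjusted p = 0.172). Kdr, VEGF receptor 2, the main signalling receptor, stood at 15.2 and 23.8 CPM in WT_VitD, against 18.6 and 21.9 CPM in WT_vehicle, groups that overlap. In the knockout Kdr had 21.8 and 23.5 CPM in KO_VitD, against 27.9 and 26.9 CPM in KO_vehicle, so it was slightly lower in both KO_VitD libraries, without a call (log2 fold change -0.28 with SE 0.234, adjusted p = 0.601).

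The angiopoietin receptor Tek gave a log2 fold change of 0.30 (SE 0.341) in WT and its partner Tie1 0.95 (SE 0.414), neither called by edgeR. Ptprb, the phosphatase that restrains Tek, had 524 and 455 CPM in WT_VitD, against 255 and 231 CPM in WT_vehicle (adjusted p = 0.196). In the knockout it stood at 849 and 196 CPM in KO_VitD, against 267 and 366 CPM in KO_vehicle, the widest gap between KO_VitD libraries among these receptors.

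Eng, endoglin, a co-receptor for BMP9, rose in WT to 315 and 434 CPM in WT_VitD, against 169 and 167 CPM in WT_vehicle (edgeR log2 fold change 1.16 with SE 0.264, adjusted p = 0.0221), and in the knockout it stood at 359 and 223 CPM in KO_VitD, against 201 and 192 CPM in KO_vehicle. Robo4, a guidance receptor that steadies the barrier, and the apelin receptor Aplnr were low, at 2.05 and 0.971 CPM per kb in WT_VitD and 1.48 and 0.759 CPM per kb in WT_vehicle, and were not called. Apln, the apelin peptide of sprouting tip cells, had 2.91 and 10.7 CPM in WT_VitD, against 1.55 and 2.85 CPM in WT_vehicle. WT_VitD 2 was the high library (edgeR log2 fold change 1.63 with SE 0.606, adjusted p = 0.0858).

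Among secreted and other endothelial products, Emcn, the sialomucin endomucin, rose in WT to 53.2 and 77 CPM in WT_VitD, against 25.3 and 21.2 CPM in WT_vehicle (edgeR log2 fold change 1.49 with SE 0.453, adjusted p = 0.049). Ecscr, a regulator of endothelial migration, likewise rose, to 41.9 and 52.2 CPM in WT_VitD, against 18.7 and 17.8 CPM in WT_vehicle (log2 fold change 1.37 with SE 0.385, adjusted p = 0.0393). Both had KO_VitD 1 far above KO_VitD 2, at 94.4 and 29.8 CPM for Emcn and 55.2 and 20.5 CPM for Ecscr. Vwf, von Willebrand factor, the platelet-binding multimer, had 904 and 751 CPM in WT_VitD, against 429 and 455 CPM in WT_vehicle and 1534 and 402 CPM in KO_VitD, against 646 and 640 CPM in KO_vehicle, with no call in either. Egfl7, Mmrn2 and Rasip1, a matrix signal, a matrix glycoprotein and a junction regulator, had log2 fold changes of 0.38, 0.54 and 0.54 in WT, with adjusted p of 0.452, 0.408 and 0.418 by edgeR.

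None of the 4 transcription factors of endothelial identity was called in WT. Erg, the ETS factor that keeps endothelial genes on, stood at 125 and 109 CPM in WT_VitD, against 67.9 and 85.4 CPM in WT_vehicle (edgeR log2 fold change 0.61 with SE 0.318, adjusted p = 0.191). Sox7, Sox17 and Sox18, the SoxF factors of arterial and lymphatic fate, had log2 fold changes of 0.97, 0.93 and 1.23. Their SEs were 0.402, 0.388 and 0.529, and both WT_VitD libraries lay above both WT_vehicle libraries for each of the 4.

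Of the arterial genes, Notch4, the Notch receptor of endothelium, was called in WT. It rose to 81.5 and 79 CPM in WT_VitD, against 23.1 and 31 CPM in WT_vehicle (edgeR log2 fold change 1.57 with SE 0.437, adjusted p = 0.0383), and in the knockout had 92.8 and 29.6 CPM in KO_VitD, against 25.9 and 31.2 CPM in KO_vehicle. Dll4, an arterial Notch ligand, had 13.7 and 16.1 CPM in WT_VitD, against 3.73 and 5.41 CPM in WT_vehicle (log2 fold change 1.70 with SE 0.62, adjusted p = 0.0802). Gja4 and Gja5, the connexins 37 and 40 of arterial gap junctions, had log2 fold changes of 1.05 (SE 0.409) and 1.23 (SE 0.467), and none of these 3 passed the threshold. Efnb2, the arterial ephrin, gave 0.38 (SE 0.307). Hey1, a transcription factor switched on by Notch, had 5.43 and 5.6 CPM in WT_VitD, against 7.96 and 5.75 CPM in WT_vehicle (edgeR log2 fold change -0.31 with SE 0.292, adjusted p = 0.459), and the VitD libraries were the lower ones.

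In the flow and tone group, both members of the endothelin pair were called in WT. Edn1 (chr13:42301476-42307990, plus strand), the peptide endothelin 1 that constricts vessels, rose 4.87-fold in WT to 65.9 and 118 CPM in WT_VitD, against 15.4 and 22.3 CPM in WT_vehicle (edgeR log2 fold change 2.28 with SE 0.574, adjusted p = 0.0282). In the knockout it had 92.7 and 23.2 CPM in KO_VitD, against 30.3 and 21.5 CPM in KO_vehicle, so KO_VitD 2 lay between both KO_vehicle libraries. Ednrb (chr14:103814625-103844402, minus strand), the endothelin B receptor, clears the peptide and triggers nitric oxide release in endothelium, and smooth muscle can carry it too. It had the lowest adjusted p of the 41 in WT. It stood at 33.8 and 50.5 CPM in WT_VitD, against 9.45 and 9.97 CPM in WT_vehicle (edgeR log2 fold change 2.12 with SE 0.229, adjusted p = 0.00281). In the knockout it stood at 35.5 and 39.4 CPM in KO_VitD, against 19.8 and 18.1 CPM in KO_vehicle, with no overlap and both VitD libraries alike (log2 fold change 0.99 with SE 0.219, adjusted p = 0.13). It was called in WT in 14 of 15 alternative fits, the exception being the number range as a covariate, where the log2 fold change was 2.27 (adjusted p = 0.0556).

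Genes linked to quiet endothelium were not called. Klf2, the factor induced by laminar flow, stood at 204 and 131 CPM in WT_VitD, against 106 and 114 CPM in WT_vehicle (edgeR log2 fold change 0.61 with SE 0.295, adjusted p = 0.163) and Nos3, endothelial nitric oxide synthase, at 103 and 83.9 CPM in WT_VitD, against 85.1 and 81.5 CPM in WT_vehicle (log2 fold change 0.17 with SE 0.388, adjusted p = 0.779). Thbd, thrombomodulin, which turns thrombin into an anticoagulant, was lower in all 4 VitD libraries than in any vehicle library. It had 160 and 154 CPM in KO_VitD, against 176 and 192 CPM in KO_vehicle, and 149 and 137 CPM in WT_VitD, against 185 and 169 CPM in WT_vehicle. The step was small and not called (edgeR log2 fold change -0.31 with SE 0.169, adjusted p = 0.21), and 11.6% of all genes tested were arranged like this. The reverse, all 4 VitD libraries above all 4 vehicle libraries, held for 8 members (Flt1, Eng, Emcn, Plvap, Ednrb, Sele, Selp and Vcam1) and for 12.6% of all genes. Procr, the protein C receptor that works beside it, was higher in WT, at 75 and 80.4 CPM in WT_VitD, against 27.2 and 29 CPM in WT_vehicle (adjusted p = 0.0653 by edgeR).

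**Figure D3:**
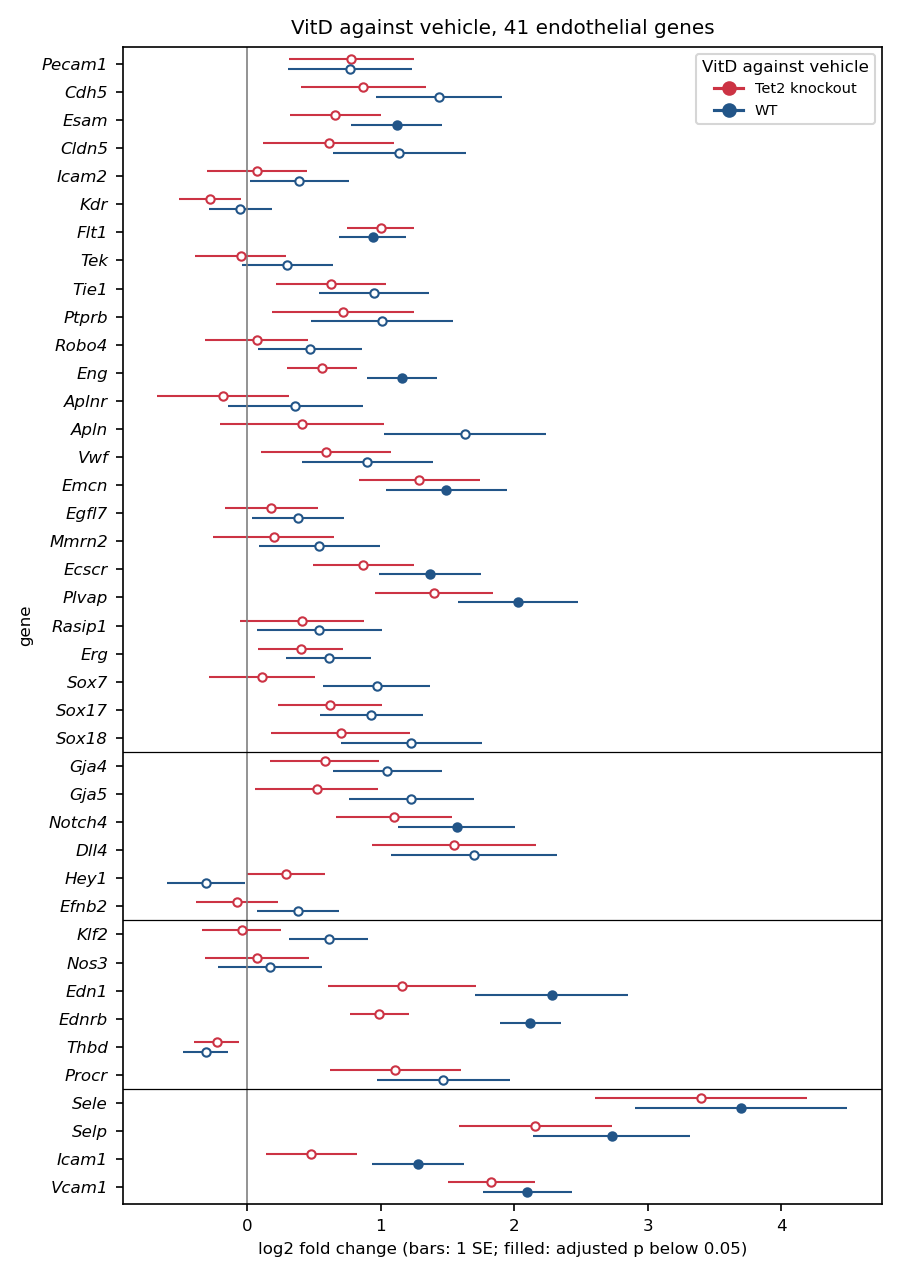
Log2 fold change of VitD against vehicle (horizontal axis, bars 1 SE) for 41 endothelial genes in the Tet2 knockout (red) and WT (blue), with filled points for an adjusted p below 0.05 by edgeR. Sele, Selp and Vcam1 lie at 3.40, 2.16 and 1.83 in the knockout and 3.70, 2.73 and 2.10 in WT, and Thbd and Kdr lie below 0 in both.

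Identity and activation were compared within each library. For each library the median log2 deviation of a class from the mean of the 4 vehicle libraries was taken. For adhesion genes it was 2.63 and 1.02 in KO_VitD against 0.17 and 0.076 in KO_vehicle, and 2.31 and 2.35 in WT_VitD against 0.092 and -0.35 in WT_vehicle. For identity genes it was 1.15 and -0.21 in KO_VitD against 0.0081 and 0.15 in KO_vehicle, and 0.79 and 0.83 in WT_VitD against -0.11 and 0.064 in WT_vehicle. Adhesion minus identity was therefore 1.48 and 1.23 in KO_VitD against 0.16 and -0.074 in KO_vehicle, and 1.51 and 1.52 in WT_VitD against 0.21 and -0.42 in WT_vehicle. Over the 4 VitD libraries this difference ranged from 1.23 to 1.52, KO_VitD 2 included, while the class medians themselves ranged from 1.02 to 2.63 for adhesion and from -0.21 to 1.15 for identity. As fitted fold changes, adhesion exceeded identity by 1.47 in WT and 1.41 in the knockout on the log2 scale, a description without a test.

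**Figure D4:**
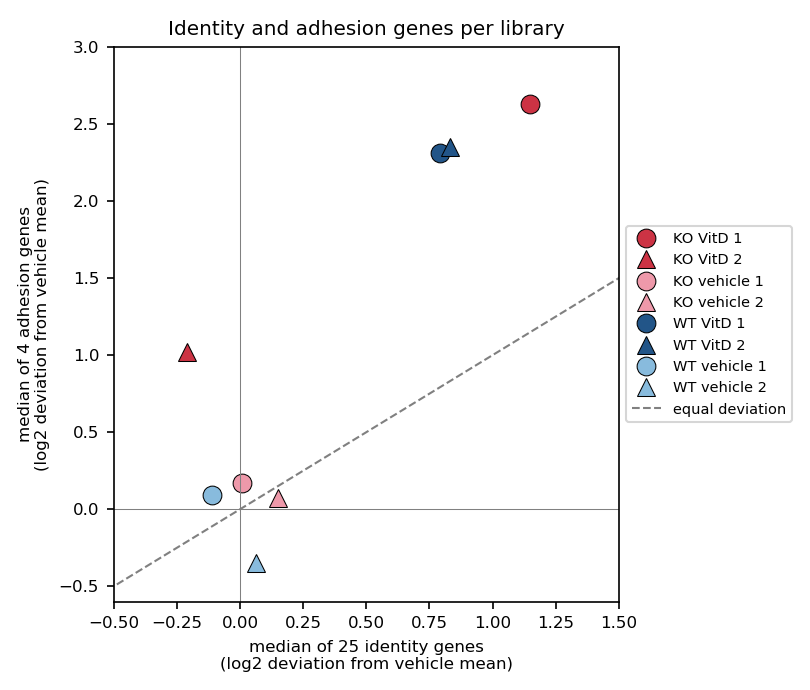
Median log2 deviation from the vehicle mean of 25 identity genes (horizontal) and 4 adhesion genes (vertical) in each library; the dashed line marks equal deviation. The 4 VitD libraries lie 1.23 to 1.52 above the line, KO_VitD 2 at an identity median of -0.21, and the vehicle libraries lie between -0.42 and 0.21 of it.

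The adhesion genes differed among themselves when set against VE-cadherin in the same library. Sele CPM was 18.8% and 9.81% of Cdh5 CPM in KO_VitD against 3.44% and 2.37% in KO_vehicle, and 20.8% and 19.3% in WT_VitD against 5.88% and 2.52% in WT_vehicle. Selp was 39.5% and 29.1% of Cdh5 in KO_VitD against 16.9% and 13.4% in KO_vehicle, and 46.1% and 42.8% in WT_VitD against 18.1% and 18.2% in WT_vehicle. For both selectins the ratio was above that of every vehicle library in all 4 VitD libraries. Icam1 was 29.6% and 46.2% in KO_VitD against 39.5% and 47.2% in KO_vehicle, and 44.2% and 37.4% in WT_VitD against 51.4% and 38.8% in WT_vehicle. The Icam1 ratio to Cdh5 thus overlapped between VitD and vehicle in both genotypes, unlike those of the selectins. This rests on Cdh5 as the denominator. In WT its log2 fold change was 1.44, that of Icam1 1.28 and the identity median 0.94. Ratios to other identity genes are not given here. Vcam1 was 134% and 249% of Cdh5 in KO_VitD against 70.7% and 92.4% in KO_vehicle, and 195% and 134% in WT_VitD against 118% and 85.2% in WT_vehicle, with no overlap.

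In the Tet2 knockout, edgeR called 0 of the 41 genes between VitD and vehicle, and 0.198% of all genes tested. At an unadjusted p under 0.05, 10 were higher and 0 lower, with 8.65% and 4.61% of all genes. DESeq2 called 6 higher, namely Ednrb, Emcn, Flt1, Plvap, Sele and Vcam1, and 2.49% of all genes higher. With no filter edgeR called 13, and 2.97% of all genes higher. The median log2 fold change was 2.0 for adhesion, 0.59 for identity, 0.55 for arterial and 0.53 for flow and tone genes, against -0.0051 over all genes tested. Both KO_VitD libraries were above both KO_vehicle libraries for 9 of the 41, where 23.7% of all genes tested were placed like this, so the share is near the background. These 9 were Flt1, Eng, Emcn, Plvap, Hey1, Ednrb, Sele, Selp and Vcam1.

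The 2 KO_VitD libraries differed from each other, and by class. KO_VitD 1 was above all 4 vehicle libraries for 35 of the 41 genes, 34% being the share over all genes tested. KO_VitD 2 was above all 4 for 9 genes, near the share of 21.5% over all genes tested. It was below all 4 for 16, where the share over all genes was 21.1%. The 9 were Flt1, Eng, Apln, Emcn, Plvap, Ednrb, Sele, Selp and Vcam1. The 16 were 10 identity genes (Icam2, Tek, Tie1, Ptprb, Vwf, Egfl7, Mmrn2, Rasip1, Sox7, Sox18), the arterial genes Gja4, Gja5 and Efnb2, and Klf2, Nos3 and Thbd. No adhesion gene was among them, and 3 of the 4 adhesion genes were among the 9.

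Without KO_VitD 2, edgeR called 26 of the 41 higher and 0 lower in the knockout, where 6.06% of all genes tested were called higher. Without KO_VitD 1, which leaves libraries of the lower number range alone in this comparison, 0 were called by edgeR, and 0.13% of all genes. At an unadjusted p under 0.05, 5 were higher and 10 lower in that fit, where 4.51% of all genes were higher and 1.88% lower. The log2 differences of KO_VitD 2 from KO_vehicle were 1.43 for Sele (SE 0.423), 1.29 for Vcam1 (SE 0.247), 1.07 for Ednrb (SE 0.249), 0.62 for Selp (SE 0.211) and 0.56 for Flt1 (SE 0.185). For Pecam1 and Cdh5 they were -0.32 each, for Tek -0.81 and for Mmrn2 -0.92. The class medians were 0.96 for adhesion and -0.32 for identity. Adjusted p in this fit was 0.445 for Sele, 0.137 for Vcam1, 0.251 for Ednrb and 0.57 for Selp.

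Genotype gave no called member under either treatment. Under vehicle edgeR called 0 of the 41 and 0% of all genes tested, and DESeq2 called 0 of the 41 and 0.105% of all genes. At an unadjusted p under 0.05, Ednrb was the 1 member that differed, where 1.86% of all genes were higher. It stood at 19.8 and 18.1 CPM in KO_vehicle and 9.45 and 9.97 CPM in WT_vehicle (edgeR log2 fold change 0.96 with SE 0.225, adjusted p = 1). The groups did not overlap for Ednrb. Only with no filter did edgeR call Ednrb, and 0.586% of all genes, a call that is uncertain as described above. Median log2 differences under vehicle were 0.18 for identity and 0.15 for adhesion genes.

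Under VitD, edgeR and DESeq2 again called 0 of the 41, and 0% and 0.619% of all genes. Apln was the 1 member lower at an unadjusted p under 0.05, where 4.71% of all genes were lower (edgeR log2 fold change -1.38 with SE 0.596, adjusted p = 0.467). Which KO_VitD library is used decided the direction. In the fit without KO_VitD 1, KO_VitD 2 of the lower number range stands against WT_VitD libraries of the higher range. Genotype and number range cannot be told apart there. Without KO_VitD 1, 20 of the 41 were called lower in the knockout than in WT and 0 higher, where 1.8% of all genes were called lower. Without KO_VitD 2, which compares libraries of the higher number range alone, edgeR called 0 members and 0.0945% of all genes, with 6 members higher and 1 lower at an unadjusted p under 0.05, where 3.54% of all genes were higher and 4.09% lower. In that fit the median log2 difference over the 41 was 0.23.

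The interaction, which asks whether VitD acts differently in the 2 genotypes, was called for 0 of 41 by edgeR and by DESeq2, and for 0% of all genes by edgeR and 0.0959% by DESeq2. Ednrb was the single member at an unadjusted p under 0.05 (edgeR difference of log2 fold changes -1.13 with SE 0.311, adjusted p = 0.794), where 2.82% of all genes were lower. For Edn1 the value was the same with a larger error (difference of log2 fold changes -1.13 with SE 0.781, adjusted p = 0.851), and for Icam1 it was -0.80 (SE 0.479). The lowest adjusted p among the 41 was 0.794. Edn1 was called lower only in the fit with no filter, where 1.44% of all genes were called, and that call is uncertain. With KO_VitD 1 left out, the knockout comparison lies in the lower number range alone, while the WT comparison crosses the ranges. Interaction and number range cannot be told apart there. The shift was not particular to 1 gene, as the median log2 difference over the 41 was -1.26, with 2 of the 41 above 0. Without KO_VitD 1, Selp was called in the interaction (edgeR log2 difference -2.13, adjusted p = 0.0459), where 0.0707% of all genes were called lower.

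Genes outside the 41 filled in the setting, and their calls in WT stand beside 10.6% of all genes called higher and 9.47% lower. Of 20 other endothelial genes, 4 were called higher and 0 lower in WT, with a median log2 fold change of 0.65. They include Cd93, a lectin-like receptor of endothelium, at 276 and 310 CPM in WT_VitD, against 70.5 and 71.8 CPM in WT_vehicle (edgeR log2 fold change 2.04 with SE 0.61, adjusted p = 0.0462), Cyyr1 (log2 1.84) and the adhesion receptor Adgrl4 (log2 1.31). Cd93 stood at 497 and 88.4 CPM in KO_VitD against 102 and 86.5 CPM in KO_vehicle. A list of 10 genes held ligands and co-receptors of the VEGF and angiopoietin systems and the peptide adrenomedullin. Of these 10, 2 were called higher and 1 lower in WT. The FLT1 ligand Pgf, placental growth factor, rose to 29.6 and 37.8 CPM in WT_VitD, against 6.15 and 5.13 CPM in WT_vehicle (edgeR log2 fold change 2.58 with SE 0.475, adjusted p = 0.0131). Adrenomedullin, Adm, which strengthens the endothelial barrier, rose as well (log2 0.90). Vegfa, the ligand of KDR, fell to 71 and 62.3 CPM in WT_VitD, against 119 and 153 CPM in WT_vehicle (log2 fold change -1.03 with SE 0.26, adjusted p = 0.029).

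Of 11 Notch partners none was called higher and 2 lower in WT, Notch3 (log2 -2.17 with SE 0.424) and Notch2 (log2 -1.26 with SE 0.328), receptors that smooth muscle carries, in contrast to Notch4. Of 15 tested genes of the cytokine and NF-κB input, 6 were called higher in WT and 0 lower. The cytokine Il6 stood at 7.28 and 11.7 CPM in WT_VitD, against 0 and 0.114 CPM in WT_vehicle, so its fold change is measured against a level near 0 (log2 7.16, SE 0.91). The log2 fold change of the monocyte chemokine Ccl2 was 4.57 (SE 0.395) and that of interleukin 1β, Il1b, 4.19 (SE 0.54). Ccl2 was called in the knockout too, with 11.9 and 9.33 CPM in KO_VitD, against 1.1 and 1.51 CPM in KO_vehicle (edgeR log2 fold change 3.01 with SE 0.367, adjusted p = 0.0236), both KO_VitD libraries being alike.

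Of 9 leukocyte partners of the adhesion molecules, 4 were called higher in WT. Itgam and Itgb2, which form the integrin Mac-1 that binds ICAM1, had log2 fold changes of 2.7 (SE 0.283) and 1.86 (SE 0.309). Spn, the leukocyte sialomucin CD43, had 1.45 (SE 0.278). Of 11 genes linked to the passage of endothelium to mesenchyme, 3 rose in WT, namely S100a4 (log2 3.36 with SE 0.819), the repressor Snai1 (log2 2.58 with SE 0.325) and Tgfb1 (log2 1.53 with SE 0.228). All 3 are also made by other cells of the wall. Of 10 genes of clotting and fibrinolysis, 6 were called higher and 2 lower. Tfpi2, a protease inhibitor (log2 2.40 with SE 0.52), Plaur, the urokinase receptor (log2 2.14 with SE 0.313), and the thrombin receptor F2r (log2 1.23 with SE 0.253) rose. The 2 that fell, named after their values were seen, were tissue factor, F3 (log2 -0.97 with SE 0.26), and the ectonucleotidase Entpd1 (log2 -0.81 with SE 0.232).

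Markers of other cells differed between the same libraries. All 6 macrophage markers were called higher in WT, and their summed level was 1897 and 1017 CPM in KO_VitD against 528 and 643 CPM in KO_vehicle, and 1865 and 2222 CPM in WT_VitD against 409 and 432 CPM in WT_vehicle. Of 6 platelet markers 5 were tested and 2 were called higher in WT. Their sum was 83 and 40.3 CPM in KO_VitD against 35.2 and 32.1 CPM in KO_vehicle, and 66.3 and 72.9 CPM in WT_VitD against 26.4 and 30.5 CPM in WT_vehicle. Most of that sum was Pf4, and the platelet receptor Gp1ba stayed between 1.88 and 4.05 CPM in all 8 libraries. All 5 tested platelet markers had a log2 fold change above 0 in WT, with a median of 1.32 and a lowest value of 0.36. At an unadjusted p under 0.05 by edgeR 4 of the 5 were higher, where 18.9% of all genes were.

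Of 6 lymphatic markers, Lyve1, which some macrophages also carry, was called higher in WT. The 6 summed to 369 and 195 CPM in KO_VitD against 139 and 168 CPM in KO_vehicle, and to 193 and 235 CPM in WT_VitD against 112 and 90.2 CPM in WT_vehicle. These sums were higher in every VitD library than in every vehicle library, but the median log2 deviations of the 6 overlapped. The medians were 0.94 and 0.20 in KO_VitD against 0.30 and 0.43 in KO_vehicle. In WT they were -0.086 and 0.069 in WT_VitD against -0.30 and -0.46 in WT_vehicle. Under vehicle, 2 of the 6 were higher in the knockout at an unadjusted p under 0.05 by edgeR, where 1.86% of all genes were. The lymphatic factor Prox1 stood at 2.86 and 2.11 CPM in KO_VitD against 2.95 and 2.57 CPM in KO_vehicle. Prox1 in WT was 1.72 and 1.70 CPM in WT_VitD against 1.06 and 1.20 CPM in WT_vehicle. The 8 smooth muscle markers summed to 20323 and 28046 CPM in KO_VitD against 29774 and 27664 CPM in KO_vehicle, and to 22484 and 15169 CPM in WT_VitD against 28927 and 30000 CPM in WT_vehicle. Of these 8, Myh11 and Smtn were called lower in WT. The smooth muscle sum of KO_VitD 2 lay within the range of the vehicle libraries, while its macrophage sum and its Sele, Selp, Vcam1 and Ednrb were above theirs. Summed adipocyte markers were 874 and 2713 CPM in KO_VitD against 1993 and 2393 CPM in KO_vehicle, and 2305 and 2763 CPM in WT_VitD against 1593 and 2413 CPM in WT_vehicle. No adipocyte marker was called in WT, and 1 of 6 fibroblast markers was. Of 5 erythroid markers edgeR called 0 in either genotype. At an unadjusted edgeR p under 0.05, 4 were lower under VitD in the knockout, where 4.61% of all genes were lower. The median log2 fold change of the 5 was -1.85. The erythroid sum was 313 and 83.3 CPM in KO_VitD against 931 and 437 CPM in KO_vehicle, and 297 and 882 CPM in WT_VitD against 828 and 291 CPM in WT_vehicle, KO_VitD 2 being the lowest of the 8 libraries. Neutrophil markers, 4 of 5 tested being called higher in WT, summed to 21.9 and 8.62 CPM in KO_VitD against 8.28 and 3.13 CPM in KO_vehicle, and 32.6 and 61.4 CPM in WT_VitD against 5.1 and 1.48 CPM in WT_vehicle. Of 5 mesothelial markers 4 were called higher in WT, and all 5 skeletal muscle markers were. The mesothelial sum was 50.7 and 43.9 CPM in KO_VitD against 28 and 103 CPM in KO_vehicle. In WT it was 85.6 and 189 CPM in WT_VitD against 32.9 and 30.6 CPM in WT_vehicle. The median mesothelial log2 fold change under VitD was 1.80 in WT and -0.38 in the knockout. The skeletal muscle sum was 15.6 and 13.5 CPM in KO_VitD against 16.3 and 9.6 CPM in KO_vehicle, and 73.3 and 330 CPM in WT_VitD against 20 and 22.5 CPM in WT_vehicle. The part of these cells in the endothelial differences was not tested.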

How the data were processed

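Poly-A enriched, stranded RNA libraries of whole mouse aortic tree were sequenced, per the labels' protocols. Per gene symbol, the authors deposited whole-number read counts that were not normalised. The submitters' processing notes name featureCounts 2.0.2, STAR 2.7.8a and Trimmomatic 0.39, with mm10 as the genome build. Not given in the sources used here: the annotation release, the strand setting and how reads with several hits were treated. Rasip1 and Nos3 share 20.4% (with Izumo1, same strand) and 25.2% (with Gm15587, opposite strand) of their exon bases with another gene, and Sox17, Icam1 and Selp share 16.8%, 11.7% and 9.93% with an antisense gene, so their counts may hold reads of those and are uncertain to that extent.

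Counts were tested with edgeR 4.0.16 in R 4.3.3 (TMM, filterByExpr, quasi-likelihood F test, 1 mean per group over 8 libraries, 4 residual degrees of freedom), in 5 contrasts, with Benjamini-Hochberg adjustment over all 16194 genes and a threshold of 0.05. CPM is the count per 1000000 after TMM scaling, and CPM per kb divides it by the longest GENCODE M21 transcript. Standard errors come from the fold change and F statistic. Per-library deviations use log2(CPM + 0.5). Members and lists were chosen with earlier results of these data known. All 41 members are named. From companion lists up to 3 genes called in WT with the largest change, and up to 2 called elsewhere, are named. The procedure was tested on simulated counts. Alternatives were DESeq2 size factors, DESeq2 1.42.0, no filter, a replicate block, a covariate for the range of the library number, only the groups compared, removal of a transcript length trend, and leaving out each library.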

Additional observations from a re-analysis of the deposited data

How the results depend on the processing

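In WT the 13 calls became 22 with DESeq2, 29 with no filter, 27 with only the groups compared, 0 once the number range was a covariate, and 1 to 27 when a library was left out. DESeq2 size factors gave 13 and removal of the length trend 10. In the knockout the 0 calls became 6 with DESeq2 and 13 with no filter, and 0 to 26 when a library was left out. Under vehicle the genotype count was 1 with no filter (Ednrb; 0.586% of all genes), and the interaction count was 1 with no filter (Edn1; 1.44% of all genes) and 0 to 1 with a library left out. Under VitD the genotype count was 0 to 20 with a library left out. Adhesion minus identity in WT was 1.11 under that covariate. Over libraries left out it was 1.32 to 1.67 in WT, 1.27 to 1.5 in the knockout, -0.26 to 0.33 for genotype under vehicle, -0.42 to 0.072 for genotype under VitD and -0.61 to 0.088 for the interaction. Under the same covariate, 4 genes called in WT changed sign, to -0.18 for Emcn, -0.12 for Esam, -0.082 for Notch4 and -0.056 for Ecscr. For genotype under VitD, Vwf, Ptprb and Mmrn2 stood at 0.23, 0.094 and 0.017 and were called lower without KO_VitD 1, at -1.06, -1.34 and -1.13. Without KO_VitD 2 they stood at 0.89, 0.79 and 0.64. The cause of these shifts was not tested. Same-numbered libraries did not deviate together (correlations -0.115 to 0.138), which gave no sign that the numbers pair them. With 2 libraries per group this cannot exclude a pairing. The replicate block gave 11 calls in WT and 0 in the 4 other contrasts, and moved adhesion minus identity for the interaction to -0.37. Depth gave Apln as few as 25 counts in a library.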
